A study of Mus musculus with 12 samples.

Results

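The Ifi200 genes of the mouse, also called the HIN-200 or PYHIN family, were followed after lipopolysaccharide (LPS) in macrophages grown from C3H/HeN mouse bone marrow, separately in newly made and in total RNA. Of the 8 family names considered (Ifi203, Ifi204, Ifi205, Ifi214, Mnda, Mndal, Pyhin1 and Aim2), members were taken where a probe set of the array was annotated with exactly 1 symbol and that symbol was the name, using the probe set with the highest mean log2 value over the 12 arrays. This gave 4 members, Aim2, Ifi203, Ifi205 and Ifi214, with 1 probe set each, of 19938 genes measured in all. Ifi204 was annotated only on a probe set shared with Ifi211, a gene for which RefSeq lists Mnda as a synonym. RefSeq lists Pyhin1 as a synonym of Ifi209, whose own probe set is described with the other family genes. Mndal had no probe set listed under its name here, and RefSeq gives it also as a synonym of Ifi203, so the Ifi203 values may hold signal of Mndal.

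The study labelled new transcripts in culture and set them against total RNA of the same cells. There were 6 groups of 2 arrays, each from an independent experiment: nascent RNA and total RNA of cultures given LPS at 100 ng/ml for 0, 45 or 270 min (4.5 h), where 0 min is the untreated culture. Every culture, the untreated one included, received 200 µM 4-thiouridine, a nucleoside that cells build into new RNA, for its last 35 min. Nascent RNA is the thiol-labelled part of the RNA, tagged with biotin and pulled out on streptavidin, so the nascent value reports transcripts made during the pulse and total RNA reports all transcripts present. The marrow cells had been grown with IL-3, IL-6, stem cell factor and L-cell conditioned medium as the source of M-CSF. The labels give the number of experiments and not the number of mice behind each. C3H/HeN carries a working Tlr4, the receptor for LPS, unlike the related C3H/HeJ strain.

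Many proteins of this family, but not all, pair a pyrin domain, which binds other pyrin domains, with HIN domains that bind DNA. Aim2 binds double-stranded DNA in the cytosol and recruits the adaptor Pycard (ASC) and caspase-1 into an inflammasome that matures interleukin-1β. Ifi204 has been linked to DNA sensing upstream of Sting1, and Ifi202b, which lacks the pyrin domain, opposes Aim2. Ifi205 has been reported to control expression of Pycard in macrophages, while the roles of Ifi203 and Ifi214 are less well known. The family is named for its induction by interferon. LPS acts through Tlr4, which leads to interferon-β (Ifnb1) and from there to transcription factors that bind the interferon-stimulated response element (ISRE) in promoters.

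The genes lie side by side on mouse chromosome 1. In the RefSeq annotation of build GRCm38.p6, 14 family genes including the pseudogene Ifi203-ps span 682 kb. Aim2 lies at chr1:173349547-173466040, Ifi214 at chr1:173521311-173535957, Ifi204 at chr1:173747293-173767069, Mndal at chr1:173857215-173880382, Ifi203 at chr1:173920400-173942866 and Ifi205 at chr1:174011998-174031755. The genes arose by duplication and are alike in sequence, so a probe set of the family may bind transcripts of a neighbour. How much each probe set does so was not tested, and the reference sequence is of C57BL/6J mice, not of C3H/HeN.

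The promoters of the 4 members are shown because those of Ifi205, Ifi214 and 1 of 2 entries for Ifi203 hold the ISRE core. The Aim2 entry, which lies inside the annotated span of that gene, does not. Each runs from 250 bases before to 50 bases after the annotated start, 5′ to 3′ on the gene's strand, from RefSeq (GRCm38.p6). Capitals mark matches to the ISRE core, which is GAAA and GAAA with any 2 bases between them, on either strand, and to GAGGAA, the core of the site for the macrophage factor PU.1. Where both overlap, as in Ifi214, they are marked as 1 run. The Aim2 promoter is chr1:173420354-173420653 (plus strand), and those of Ifi203 (the second of 2 RefSeq entries), Ifi205 and Ifi214 are chr1:173942443-173942742, chr1:174031706-174032005 and chr1:173535908-173536207 (minus strand).
Aim2: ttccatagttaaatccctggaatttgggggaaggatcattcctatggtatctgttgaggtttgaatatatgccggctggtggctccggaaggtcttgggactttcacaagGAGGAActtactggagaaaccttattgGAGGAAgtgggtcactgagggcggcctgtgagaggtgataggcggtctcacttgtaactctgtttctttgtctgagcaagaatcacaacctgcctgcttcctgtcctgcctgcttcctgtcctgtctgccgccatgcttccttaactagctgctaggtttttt
Ifi203: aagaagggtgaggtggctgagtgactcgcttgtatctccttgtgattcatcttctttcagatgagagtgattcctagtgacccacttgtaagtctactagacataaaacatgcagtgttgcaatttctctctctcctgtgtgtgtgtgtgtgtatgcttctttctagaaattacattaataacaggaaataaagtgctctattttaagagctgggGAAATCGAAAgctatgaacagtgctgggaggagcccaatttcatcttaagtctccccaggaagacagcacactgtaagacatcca
Ifi205: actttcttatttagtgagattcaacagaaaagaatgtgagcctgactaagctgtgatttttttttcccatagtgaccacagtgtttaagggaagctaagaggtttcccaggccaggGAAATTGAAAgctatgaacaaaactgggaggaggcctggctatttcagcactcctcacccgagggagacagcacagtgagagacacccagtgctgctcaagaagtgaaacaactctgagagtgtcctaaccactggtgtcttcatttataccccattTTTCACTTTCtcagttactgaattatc
Ifi214: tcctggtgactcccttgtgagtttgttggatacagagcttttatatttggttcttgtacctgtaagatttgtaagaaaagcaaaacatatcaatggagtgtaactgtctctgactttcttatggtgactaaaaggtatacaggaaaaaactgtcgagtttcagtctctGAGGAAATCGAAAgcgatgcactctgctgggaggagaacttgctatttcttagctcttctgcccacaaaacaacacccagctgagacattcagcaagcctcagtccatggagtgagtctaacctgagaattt

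The ISRE core lay 35 bases before the start of Ifi203 in the entry shown, while the first Ifi203 entry held no match, and 79 bases before that of Ifi214. Ifi205 had a core 134 bases before its start and another, on the opposite strand, 23 bases after it. The Aim2 window had no match to the ISRE core and held GAGGAA at 140 and at 113 bases before the start of that entry. That start lies inside the Aim2 span given above, and the sequence at the upstream end of the span, 173349547, was not searched. Of all 32851 RefSeq promoters of the same length, 3.44% held the ISRE core, 28.3% held GAGGAA and 8.3% held TTCNNNGAA, a site for Stat dimers, each on either strand. A match is a description of the letters and not a test of binding.

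Over the whole locus, 12 of 13 family genes without the pseudogene had a promoter entry, and 9 of those 12 held the ISRE core, while Aim2, Ifi202b and Ifi209 did not. No member held TTCNNNGAA, which was found in Ifi202b. The stretch of 33 bases that starts at the core is shown for the 9 genes, because it lets the duplicated promoters be compared base by base. Capitals mark the ISRE core.
Ifi203: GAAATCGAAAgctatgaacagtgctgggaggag
Mndal: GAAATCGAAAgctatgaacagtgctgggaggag
Ifi211: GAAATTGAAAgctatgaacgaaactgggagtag
Ifi205: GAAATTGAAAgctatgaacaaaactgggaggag
Ifi214: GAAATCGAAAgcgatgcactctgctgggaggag
Ifi206: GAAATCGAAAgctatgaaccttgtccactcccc
Ifi207: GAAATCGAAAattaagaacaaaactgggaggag
Ifi208: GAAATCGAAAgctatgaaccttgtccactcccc
Ifi213: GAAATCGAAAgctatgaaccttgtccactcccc
The Ifi203 and Mndal stretches were identical in all 33 bases. Ifi205 and Ifi214 each shared 29 of 33 bases with Ifi203, Ifi211 and Ifi207 shared 27, and Ifi206, Ifi208 and Ifi213 shared 21. Counted from 1 at the first base of the core, with the Ifi203 base first, Ifi205 differed at C6T, G21A, T22A and G23A, and Ifi214 at T13G, A17C, A20T and G21C. The Ifi205 difference at position 6 falls in the unspecified middle of the core.

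**Figure D1:**
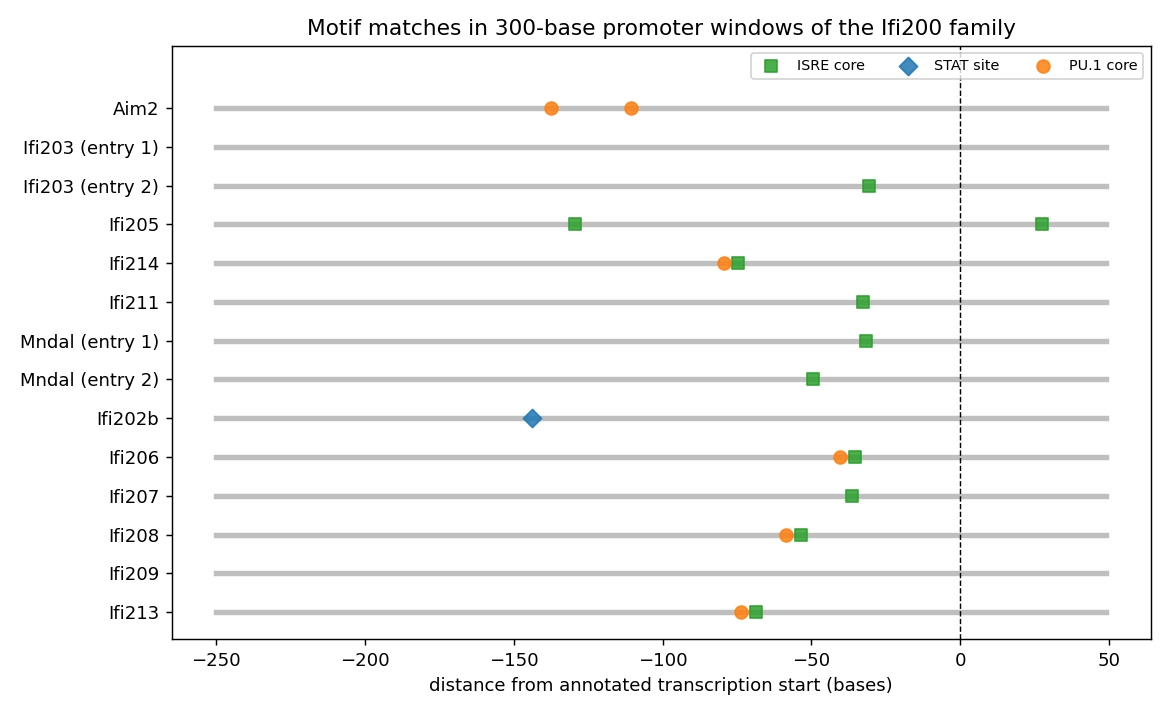
Positions of motif matches in the RefSeq promoter entries of 12 Ifi200 genes. The x axis is the distance from the annotated transcription start in bases, each grey bar is a window of 300 bases, and the symbols mark the centres of matches to the ISRE core, the Stat site and the PU.1 core. In 9 of the 12 genes at least 1 entry holds an ISRE core, and the Aim2 window holds PU.1 cores only.

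All 12 arrays were alike in scale, with median intensities of 82.94 to 105.33 and correlations between the 2 arrays of a group of 0.9806 to 0.9891, and no array pair was identical. All 8 macrophage markers were above the background level on every array. That level is the 95th percentile of 1027 olfactory receptor genes, taken here as mostly silent, and lay at 6.18 to 6.8 on the log2 scale. Olfr433, 1 of these genes, was above the level on 1 of the 2 untreated nascent arrays and on both arrays of every other group. Of the markers of other cells, 1 of 5 T cell genes (Cd3e) and 1 of 5 mast cell genes (Kit) were above it on all arrays, and 0 of 3 B cell, 0 of 3 NK cell, 0 of 6 neutrophil and progenitor, 0 of 4 dendritic cell and 0 of 1 erythroid genes were. Under it on all arrays were 3 of the 5 T cell, 3 of 3 B cell, 2 of 3 NK cell, 3 of 6 neutrophil and progenitor, 2 of 4 dendritic cell, 1 of 1 erythroid and 0 of 5 mast cell genes, the rest lying above it on some arrays. The untreated nascent arrays stood apart: the deviations between experiments correlated at -0.295 to 0.025 between that group and the 5 others, including -0.055 with untreated total RNA, and at 0.175 to 0.645 between the others. The 270 min nascent calls of all 4 members held without either of these arrays. In RNA from whole cultures, a change in the number of cells of a type and a change in RNA per cell cannot be told apart.

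Aim2 was measured above background on every array and was higher at 270 min in both kinds of RNA. In nascent RNA its log2 values in experiments 1 and 2 were 8.75 and 9.07 at 0 min, 8.88 and 9.37 at 45 min, and 10.88 and 11.3 at 270 min. In total RNA they were 8.99 and 9.88 at 0 min, 9.07 and 10.21 at 45 min, and 10.79 and 11.2 at 270 min. The 270 min arrays lay above all 0 and 45 min arrays of the same fraction, while the 0 and 45 min arrays overlapped. The change from 0 to 270 min was 2.18 ± 0.37 in nascent RNA (log2 difference with its SE, 4.52-fold, adjusted p = 0.000569) and 1.56 ± 0.37 in total RNA (2.96-fold, adjusted p = 0.00757). The nascent change was nearly the same in both experiments, at 2.12 and 2.23, while the total change was 1.81 and 1.32. The total change was not called without the 270 min array of experiment 2 (1.36, adjusted p = 0.0623) or without the 0 min array of experiment 1 (1.11, adjusted p = 0.0931).

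Ifi203 was above background on every array too, and was higher at 270 min in both fractions. Its nascent log2 values were 9.68 and 9.71 at 0 min, 9.61 and 10.17 at 45 min, and 12.48 and 12.65 at 270 min. Its total values were 9.89 and 10.59 at 0 min, 9.84 and 10.8 at 45 min, and 12.01 and 12.37 at 270 min. As with Aim2, the 0 and 45 min arrays overlapped and the 270 min arrays stood clear of both. The 270 min change was 2.87 ± 0.31 in nascent RNA (7.31-fold, adjusted p = 1.2e-05) and 1.95 ± 0.31 in total RNA (3.86-fold, adjusted p = 0.000481).

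Ifi205 was under the background level on all 4 untreated arrays and was the only member called at 45 min in nascent RNA. Its nascent log2 values were 5.49 and 5.76 at 0 min, 7.54 and 7.66 at 45 min, and 11.85 and 11.57 at 270 min. Its total values were 5.24 and 5.62 at 0 min, 6.17 and 7.3 at 45 min, and 12.32 and 12.07 at 270 min. In nascent RNA the 3 times were fully separate, and both 45 min arrays were above background. In total RNA at 45 min only the array of experiment 2 was above background. Since the untreated signal is under the background level, folds are lower bounds: the 270 min rise was at least 42.5-fold in nascent RNA (6.09 ± 0.30, adjusted p = 8.73e-09) and at least 60.2-fold in total RNA (6.76 ± 0.30, adjusted p = 4.5e-09).

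Ifi214 was under background on all 8 arrays at 0 and 45 min and far above it at 270 min. Its nascent log2 values were 4.47 and 5.43 at 0 min, 4.24 and 4.33 at 45 min, and 10.85 and 11.16 at 270 min. Its total values were 4.91 and 4.96 at 0 min, 4.66 and 5.09 at 45 min, and 9.84 and 10.42 at 270 min. The gap between the 270 min arrays and the others was wider than any spread between experiments. The rise at 270 min was at least 26.0-fold in nascent RNA (6.06 ± 0.28, adjusted p = 5.91e-09) and at least 14.5-fold in total RNA (5.20 ± 0.28, adjusted p = 2.76e-08).

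**Figure D2:**
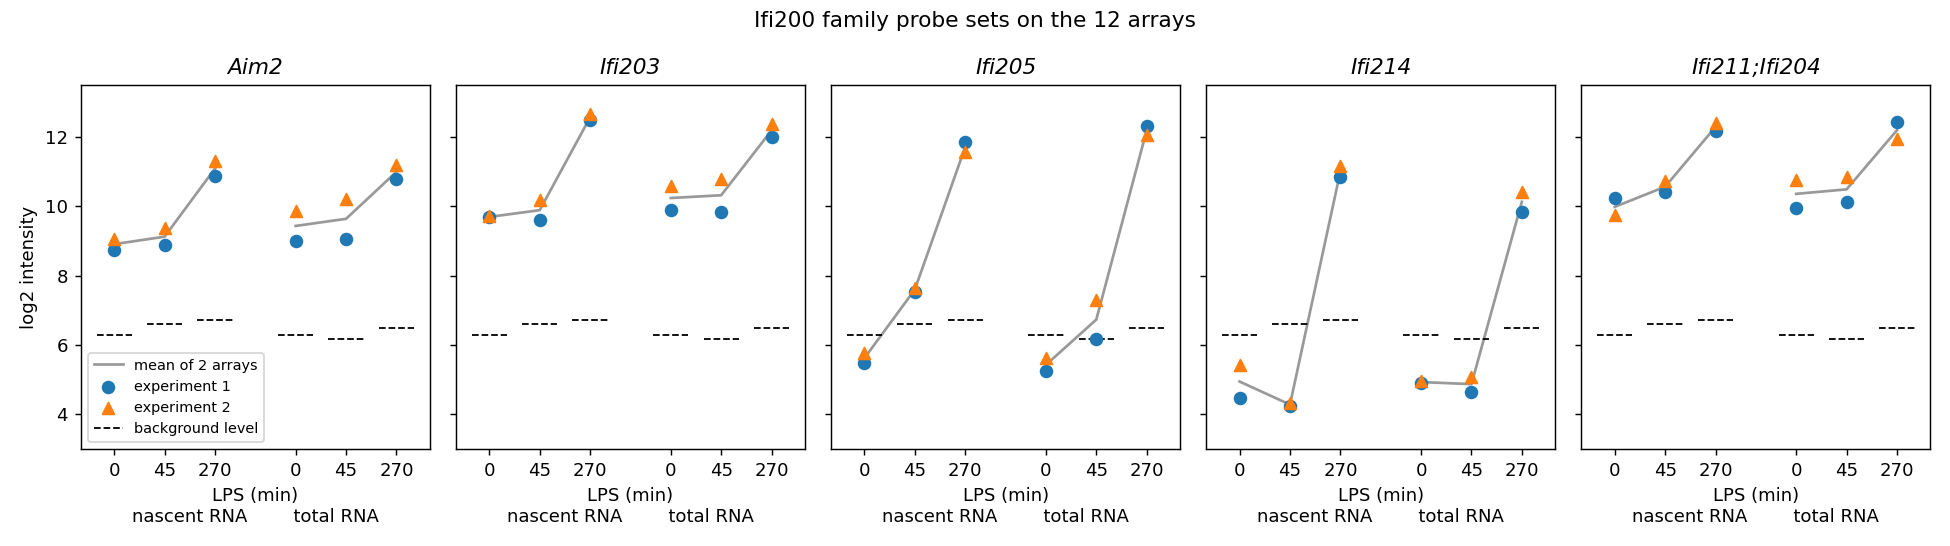
Log2 values of the 4 members and of the probe set shared by Ifi211 and Ifi204, by minutes of LPS, in nascent and total RNA. Circles and triangles are single arrays of experiments 1 and 2, lines join the means of 2 arrays, and dashed lines give each group's mean background level. Ifi205 and Ifi214 start under it and reach 11.57 to 12.32 and 9.84 to 11.16 at 270 min, whereas Aim2 and Ifi203 start above it.

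The probe set shared by Ifi211 and Ifi204 lies outside the gene table, and its values come from a fit over all 35557 probe sets. Its nascent log2 values were 10.23 and 9.74 at 0 min, 10.41 and 10.72 at 45 min, and 12.17 and 12.41 at 270 min. Its total values were 9.95 and 10.77 at 0 min, 10.13 and 10.85 at 45 min, and 12.44 and 11.95 at 270 min. The 270 min arrays lay above all others, and the share of each gene in this signal cannot be told apart. The change at 270 min was 2.31 ± 0.34 in nascent RNA (adjusted p = 0.0014) and 1.83 ± 0.34 in total RNA (adjusted p = 0.00682), with 0.58 ± 0.34 (adjusted p = 0.381) at 45 min in nascent RNA.

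At 45 min of LPS, the early response, 1 of 4 members was called higher than at 0 min in nascent RNA and 0 lower, where 3.05% of all genes were called higher and 8.93% in either direction. The gene was Ifi205, at 1.98 ± 0.30 (at least 2.46-fold, adjusted p = 0.00116), with 2.06 in experiment 1 and 1.9 in experiment 2. Aim2 changed by 0.22, with a 95% interval of -0.57 to 1.0, and Ifi203 by 0.20, with an interval of -0.47 to 0.86. Neither was called, and the intervals allow rises of up to 1.0 and 0.86 on the log2 scale. For Ifi214 both groups were under background, so no change is given. The median change was 0.21 over the members, with Ifi214 counted at its values under background, and 0.11 over all genes.

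In total RNA at 45 min 0 of 4 members were called by limma, where 0.662% of all genes were called higher and 0.682% in either direction. Ifi205 was at 1.30 ± 0.30 (adjusted p = 0.1), with 0.93 in experiment 1 and 1.68 in experiment 2. With the experiment as a block its adjusted p was 0.0253, and without the 45 min array of experiment 1 the value was 1.87 (adjusted p = 0.00347). Aim2 was at 0.21 (interval -0.58 to 0.99) and Ifi203 at 0.08 (interval -0.59 to 0.75). The median was 0.14 for the members, with Ifi214 counted at its values under background, and -0.01 for all genes.

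At 270 min all 4 members were called higher than at 0 min in both fractions. The share of all genes called higher was 8.87% in nascent RNA, with 23.0% in either direction, and 7.02% in total RNA, with 19.0% in either direction. The median change of the members was 4.46 in nascent and 3.57 in total RNA, against 0.12 and 0.07 over all genes. With Ifi205 and Ifi214 set at their lower bounds the members' medians were 3.79 and 2.9. Among the members measured above background at both times, Ifi203 ranked 168 and Aim2 ranked 283 of 19938 genes by size of rise in nascent RNA, and 330 and 491 in total RNA.

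The interval after 45 min was also tested. All 4 members were called higher at 270 than at 45 min in both fractions, where 6.74% of genes were called higher in nascent RNA (16.8% in either direction) and 6.64% in total RNA (18.2% in either direction). Ifi214 rose at least 20.9-fold between these times in nascent RNA (6.72 ± 0.28, adjusted p = 3.76e-09) and at least 15.4-fold in total RNA (5.26 ± 0.28, adjusted p = 4.23e-08). Ifi205, which had already risen by 45 min, rose a further 17.3-fold in nascent RNA (4.11 ± 0.30, adjusted p = 4.73e-07). Ifi203 rose by 2.67 ± 0.31 in nascent RNA (adjusted p = 2.87e-05) and by 1.87 ± 0.31 in total RNA (adjusted p = 0.000718). In total RNA Aim2 had the smallest change from 45 to 270 min of the members, at 1.36 ± 0.37 (adjusted p = 0.0187). It was not called without the 270 min array of experiment 2 (1.15, adjusted p = 0.129), without the 45 min array of experiment 1 (0.79, adjusted p = 0.194), with only the 6 total RNA arrays (adjusted p = 0.0561) or when every probe set was tested on its own (adjusted p = 0.0674).

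**Figure D3:**
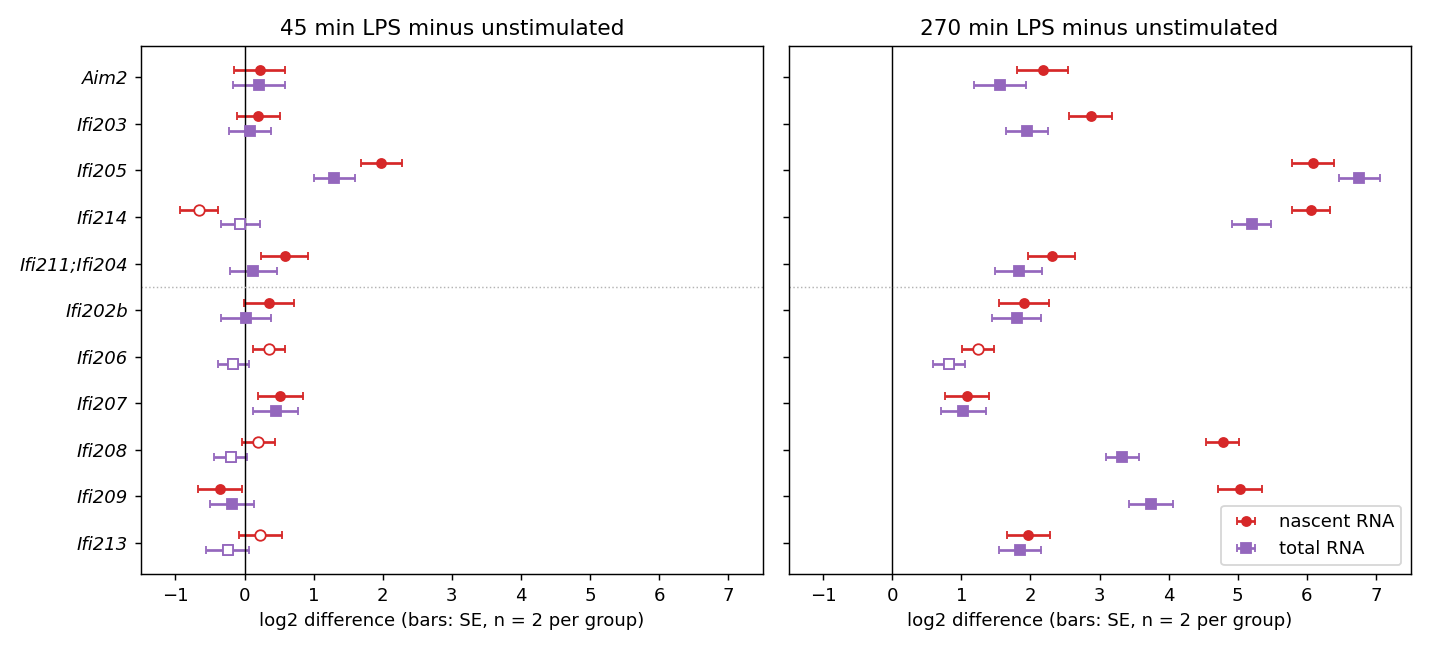
Log2 differences of the 4 members, of the probe set shared by Ifi211 and Ifi204 and, under the dotted line, of 6 other Ifi200 genes, at 45 (left) and 270 min (right) against 0 min. Circles are nascent and squares total RNA with their SE from 2 arrays a group, and open symbols mark genes under the background level in both groups. At 270 min the members run from 1.56 (Aim2, total RNA) to 6.76 (Ifi205, total RNA), and at 45 min Ifi205 stands apart at 1.98 and 1.30.

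Nascent RNA was next set against total RNA of the same cultures. In untreated cells 0 of 4 members differed by limma, where 7.58% of genes were called higher in nascent RNA and 16.0% in either direction. Aim2 was at -0.52 ± 0.21 (adjusted p = 0.115) and Ifi203 at -0.54 ± 0.19 (adjusted p = 0.0631), where a negative value is lower in nascent RNA. Ifi203 passed the threshold with values floored at the background level (adjusted p = 0.0266) and with dim genes left out (adjusted p = 0.0476). The difference lay mostly in experiment 2: Aim2 was at -0.82 there and at -0.23 in experiment 1, and Ifi203 at -0.88 and -0.20. Without the 0 min arrays of experiment 1 both passed (adjusted p = 0.00563 for Aim2 and 0.000305 for Ifi203), and without those of experiment 2 neither did (adjusted p = 0.698 and 0.693). Ifi205 and Ifi214 were under background in both fractions at this time.

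Whether the response to LPS differed between the fractions was tested as the nascent change minus the total change. For Ifi205 and Ifi214 it includes 0 min values under background. At 45 min 0 of 4 members passed, where 0.476% of genes were higher and 1.04% were called in either direction, and Ifi205 was at 0.68 ± 0.33 (adjusted p = 0.439). These shares moved with single arrays: 380 genes were higher and 1350 lower without the 0 min arrays of experiment 1, 0 and 0 without the 45 min arrays of experiment 1, and 7 and 0 without those of experiment 2, against 95 and 113 with all arrays. At 270 min 0 of 4 passed, where 0.12% of genes were higher and 0.843% were called in either direction. The difference at 270 min was 0.61 (interval -0.02 to 1.25, adjusted p = 0.736) for Aim2, with 0.32 in experiment 1 and 0.91 in experiment 2. For Ifi203 it was 0.92 (interval 0.35 to 1.49, adjusted p = 0.187), with 0.68 in experiment 1 and 1.16 in experiment 2. For Ifi214 it was 0.86 (interval 0.2 to 1.52, adjusted p = 0.416), larger in nascent RNA in both experiments, at 1.46 and 0.26. Ifi205 ran the other way, at -0.67 (interval -1.36 to 0.03, adjusted p = 0.749), with -0.71 and -0.63 in the single experiments. Without the 0 min arrays of experiment 1, Aim2 (0.91, adjusted p = 0.035) and Ifi203 (1.26, adjusted p = 5.44e-05) passed at 270 min. Without those of experiment 2 Aim2 was at 0.32 (adjusted p = 1.0) and Ifi203 at 0.58 (adjusted p = 0.552), and Ifi214 passed (1.32, adjusted p = 0.0274). With values floored at the background level Ifi203 passed (adjusted p = 0.0359).

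The 2 experiments lay apart for Aim2 and Ifi203 in total RNA at 0 and 45 min. Experiment 2 minus experiment 1 was 0.9 at 0 min, 1.14 at 45 min and 0.41 at 270 min for Aim2, and 0.71, 0.96 and 0.36 for Ifi203 at the same times. Of all genes, 2.31% were higher in experiment 2 by 0.7 or more in total RNA at 0 min and 4.11% at 45 min, while at 270 min 10.3% were higher by 0.5 or more, a gap that neither gene reached. For Ifi205 the gap in total RNA at 45 min was 1.13. The summed intensity of the 5 mast cell markers also differed between experiments in total RNA: at 0 min it was 1343 in experiment 2 and 381 in experiment 1, at 45 min 1687 and 469, and at 270 min 1422 and 598. In nascent RNA the same sums were 423 and 319 at 0 min, 523 and 331 at 45 min, and 657 and 460 at 270 min. Cpa3, a mast cell protease, had log2 values of 8.41 and 6.48 in experiments 2 and 1 in untreated total RNA, and Mcpt8, a basophil protease, 9.24 and 6.76. Fcer1a was at 7.56 and 5.07 there. The gap was smaller for Kit (7.0 and 6.38) and Tpsb2 (6.34 and 6.04), and at 45 min Tpsb2 ran the other way in total RNA (6.13 and 6.24). The part of mast cells or basophils in the members' values was not tested. The rise at 270 min was present in each experiment for all 4 members in both fractions.

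The locus held 6 further Ifi200 genes with a probe set of their own: Ifi202b, Ifi206, Ifi207, Ifi208, Ifi209 and Ifi213. All 6 were called higher at 270 min in both fractions and 0 of 6 at 45 min in either, where the shares of all genes called higher were 8.87% and 7.02% at 270 min and 3.05% and 0.662% at 45 min, in nascent and total RNA in turn. However, Ifi206 was under background at every time and no change is given for it. The median over the 6 genes at 270 min was 1.94 in nascent and 1.82 in total RNA. These medians count Ifi206, and they count Ifi208 and Ifi213 from 0 min values under background, not at their lower bounds. Ifi209, the gene with the synonym Pyhin1, rose by 5.03 ± 0.32 in nascent RNA (32.8-fold, adjusted p = 8.21e-08) and by 3.75 ± 0.32 in total RNA (13.4-fold, adjusted p = 1.89e-06). Ifi208 rose at least 5.09-fold in nascent and at least 2.28-fold in total RNA. Ifi202b, the opponent of Aim2, changed by 1.91 ± 0.36 in nascent RNA (adjusted p = 0.00153) and by 1.80 ± 0.36 in total RNA (adjusted p = 0.00276). Ifi213 rose at least 1.7-fold in nascent and at least 1.32-fold in total RNA, and its total change was not called with values floored at the background level (adjusted p = 0.128).

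Ifi207, whose role is less well known, had changes of 1.08 ± 0.32 in nascent RNA (adjusted p = 0.0251) and 1.03 ± 0.32 in total RNA (adjusted p = 0.0364). Its nascent call was lost without either 270 min array (0.96 and 1.21, adjusted p = 0.14 and 0.0694) or without the 0 min array of experiment 2 (0.58, adjusted p = 0.313). Its total call was lost without the 270 min array of experiment 1 (0.68, adjusted p = 0.206) or without either 0 min array (1.17 and 0.89, adjusted p = 0.0659 and 0.17). It was also lost in total RNA with quantile scaling of all arrays (0.87, adjusted p = 0.0864). In the test between fractions the response of Ifi208 passed, being larger in nascent RNA by 1.45 ± 0.27 at 270 min (adjusted p = 0.00821), with 1.24 and 1.66 in the single experiments and 0 min values under background. That call was lost without the pairing of fractions within an experiment (adjusted p = 0.145) or without the 0 min arrays of experiment 2 (1.18, adjusted p = 0.0908). Ifi209, measured above background at all times, was at 1.29 ± 0.37 (adjusted p = 0.173), and passed with values floored at the background level (adjusted p = 0.00634). Without the 0 min arrays of experiment 1 Ifi209 (1.65, adjusted p = 2.7e-05) and Ifi202b (0.77, adjusted p = 0.0405) passed as well.

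A list of 27 measured genes of cytosolic DNA sensing, inflammasomes and interferon signalling was set beside the family. At 270 min 15 were higher and 3 lower in nascent RNA, and 17 higher and 3 lower in total RNA. Of all genes 8.87% were called higher in nascent and 7.02% in total RNA, and 23.0% and 19.0% in either direction, 2827 and 2387 of 19938 being lower. The median change was 0.93 in nascent and 0.85 in total RNA, against 0.12 and 0.07 over all genes. For the Ifi200 members it was 4.46 and 3.57, or 3.79 and 2.9 with Ifi205 and Ifi214 at their lower bounds. For the 6 other Ifi200 genes it was 1.94 and 1.82. Ifnb1 was among the 17 but was under background in both groups of total RNA at those times. Cgas, the enzyme that makes cyclic GMP-AMP on binding DNA, rose by 2.29 ± 0.21 in nascent RNA (4.9-fold, adjusted p = 3.06e-06) and at least 3.25-fold in total RNA (adjusted p = 1.8e-05).

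**Figure D4:**
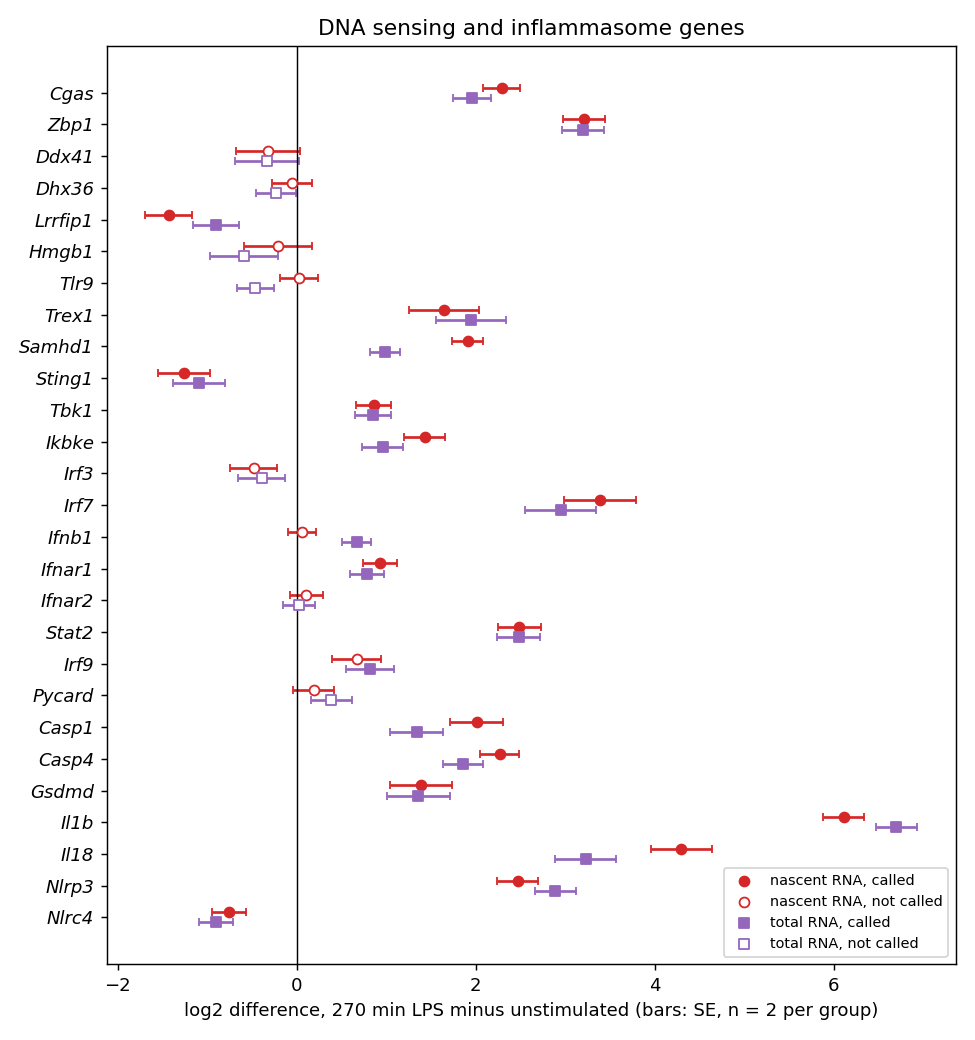
Log2 differences at 270 against 0 min of the 27 measured genes of DNA sensing, inflammasomes and interferon signalling. Circles are nascent and squares total RNA with their SE from 2 arrays a group, filled where the gene was called. Cgas lies at 2.29 and 1.96, Irf7 at 3.39 and 2.95, and Sting1 below 0 at -1.26 and -1.09 in nascent and total RNA.

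Sting1, the receptor for cyclic GMP-AMP, was lower at 270 min, unlike the Ifi200 genes above background. It changed by -1.26 ± 0.29 in nascent RNA (adjusted p = 0.00572) and by -1.09 ± 0.29 in total RNA (adjusted p = 0.0161) at 270 min. The nascent call was lost without the 270 min array of experiment 2 (-1.17, adjusted p = 0.0544) or the 0 min array of experiment 2 (-0.80, adjusted p = 0.083). The total call was lost without the 270 min array of experiment 2 (-0.87, adjusted p = 0.136) or the 0 min array of experiment 1 (-0.96, adjusted p = 0.109). The other lower genes were Lrrfip1 and Nlrc4. Nlrc4 was under background at 270 min, and with values floored at that level it was not called (-0.18, adjusted p = 0.434 in nascent and -0.36, adjusted p = 0.316 in total RNA). The total call of Lrrfip1 was lost under quantile scaling within each fraction (-0.72, adjusted p = 0.123) and of all arrays (-0.66, adjusted p = 0.155). In nascent RNA the number lower was 1 without the 270 min or the 0 min array of experiment 2, and in total RNA it was 0 without the 270 min array of experiment 2 and 1 without the 0 min array of experiment 1.

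Of the partners of Aim2, Casp1 was called at 270 against 0 min in both fractions, and Pycard in total RNA under quantile scaling only. Casp1, the protease of the inflammasome, rose by 2.01 ± 0.30 in nascent RNA (4.03-fold, adjusted p = 0.000239) and by 1.34 ± 0.30 in total RNA (2.54-fold, adjusted p = 0.00615). The total call of Casp1 was lost without the 270 min array of experiment 2 (1.19, adjusted p = 0.0522) or the 0 min array of experiment 1 (0.98, adjusted p = 0.0789). Pycard, the adaptor between Aim2 and caspase-1, was at 0.19 ± 0.23 in nascent RNA (interval -0.3 to 0.69, adjusted p = 0.555) and 0.39 ± 0.23 in total RNA (interval -0.11 to 0.88, adjusted p = 0.289). With quantile scaling within each fraction its total change was 0.65 (adjusted p = 0.0343), and with that of all arrays 0.62 (adjusted p = 0.0454). At 270 against 45 min Pycard was called in nascent RNA (0.85 ± 0.23, adjusted p = 0.0195). That call was lost without the 270 min array of experiment 1 (0.61) or without either 45 min array (0.76 and 0.94). At 270 against 0 min the nascent change of Pycard was 0.72 in experiment 1 and -0.33 in experiment 2. Irf7, an interferon-induced transcription factor, rose by 3.39 ± 0.40 in nascent RNA (adjusted p = 2.96e-05) and by 2.95 ± 0.40 in total RNA (adjusted p = 0.000135).

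At 45 min 7 of the 27 genes were higher and 0 lower in nascent RNA, namely Trex1, Casp4, Il1b, Nlrp3, Nlrc4, Ifnb1 and Ifnar1, and in total RNA 2 were higher, Il1b and Nlrp3, where 3.05% and 0.662% of all genes were called higher and 8.93% and 0.682% in either direction. The list's median at 45 min was 0.17 in nascent and 0.13 in total RNA. Trex1 was at 1.35 ± 0.39 (adjusted p = 0.0459), with 2.14 in experiment 1 and 0.55 in experiment 2, and at 0.70 (adjusted p = 0.263) without the 0 min array of experiment 1. It also lost the call without the 45 min array of experiment 1 (1.20, adjusted p = 0.175) or 2 (1.49, adjusted p = 0.15), and Nlrc4 and Ifnar1 lost theirs without any 1 of the 4 nascent arrays at 0 and 45 min. The nascent count was 4 without either 45 min array or the 0 min array of experiment 1. Ifi205 was the only Ifi200 gene among the early calls.

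Across the 12 arrays the 4 members had Pearson correlations with each other of 0.889 to 0.983, the highest being between Aim2 and Ifi203 and the lowest between Aim2 and Ifi205. These are descriptions over arrays that share their treatment groups. The correlations include values under the background level. For Ifi205 these are all untreated arrays and the 45 min total RNA array of experiment 1. For Ifi214 they are all untreated and all 45 min arrays. How much of each correlation rests on the rise to the 270 min arrays was not tested. Among 6142 genes compared, the values most like Ifi205 were those of Cxcl3 (0.995), Il6 (0.994) and Il12b (0.993), which encode a chemokine, a cytokine and a cytokine subunit. Those most like Ifi203 were Gbp9 (0.992), Herc6 (0.989) and Ms4a4b (0.989), and those most like Ifi214 were Gm12250 (0.994), Il15ra (0.993) and Iigp1 (0.993). Outside the members, Aim2 was most like Sgk3 (0.987), Ms4a4b (0.982) and Ppp2r5a (0.979), while its correlation with the member Ifi203 was 0.983.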

How the data were processed

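Per the labels, nascent (100 ng) and total (200 ng) RNA samples went onto mouse Gene ST arrays of Affymetrix, and the submitters' processing notes name RMA in the Affymetrix Expression Console, with no version given in the sources used here. The authors deposited RMA intensity values on a linear scale, although the design expected log2 values, so log2 was taken here. Of 35557 probe sets, 21789 had 1 symbol, 1621 several and 12147 none listed, and the symbols of 21698 of these 21789 were found in RefSeq with 0 changed. For the 999 genes with several probe sets the one with the highest mean was kept, giving 19938 genes, with no filter on low values. Whether all 12 arrays were normalised together is not given in the sources used here.

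A mean per group was fitted over the 12 arrays with limma 3.58.1 (R 4.3.3, eBayes with an intensity trend), with Benjamini-Hochberg adjustment across the 19938 genes and calls at an adjusted p under 0.05. Nascent minus total was fitted on the differences within each experiment and time. With both groups under the background level no change is given, and with 1 group under it the fold is a lower bound. With 2 arrays a group the p-values rest on a spread shared over groups. The array number limits the precision. Nascent and total arrays of the same experiment and time were paired, since nascent RNA was purified out of the RNA of that culture. The tests between times did not use the experiment, except as a block in 1 alternative. Over 15 pairs of groups the correlation of the deviations between experiments was -0.295 to 0.645 (median 0.326). It was over 0.1 in 10 of 15, and the others all involve the untreated nascent group. Between nascent and total RNA it was -0.055 at 0 min, 0.175 at 45 min and 0.419 at 270 min. Genes most like a member were the 3 with the highest Pearson correlation over the 12 arrays, the members themselves being left out. Genes were compared only where their group means spanned at least 1 on the log2 scale and the highest reached the background level.

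The members, gene lists and tests were chosen with earlier results of these data known. The named genes are the members, the other family genes, and genes of the DNA sensing list picked by role. The fits were tested on simulated data. Alternatives were quantile scaling, no intensity trend, a floor at the background level and the mean of all probe sets of a gene. Others were the experiment as a block, only the arrays of a fraction, dim genes left out and each array left out. For nascent minus total, both arrays of an experiment and time were left out together. Every probe set tested on its own was added after seeing the data.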

Additional observations from a re-analysis of the deposited data

Results flagged for a closer look

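The nascent response to LPS at 45 min minus the total response was 1.63 ± 0.26 for Ifnb1 (adjusted p = 0.00511; 1.91 and 1.35 in experiments 1 and 2) and 1.19 ± 0.28 for Casp4 (adjusted p = 0.0452; 1.08 and 1.3), each larger in nascent RNA. For Ifnb1 only nascent RNA at 45 min was above background (7.48, against 5.28 at 0 min, at least 2.26-fold), and both total RNA groups were under it (5.92 and 5.35), so the size of its difference is not measured. Ifnb1 was not called without the 45 min arrays of experiment 1 (1.47, adjusted p = 0.264) or of experiment 2 (1.79, adjusted p = 0.129). Casp4 was not called without those of experiment 1 (0.92, adjusted p = 0.349) or 2 (1.45, adjusted p = 0.443) or without the 0 min arrays of experiment 2 (0.82, adjusted p = 0.0539), nor under either quantile scaling (1.13 and 1.07), without the intensity trend or without pairing (adjusted p = 0.219).

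The same difference was 1.61 ± 0.29 for Olfr433 (adjusted p = 0.0114), and it was not called without the 45 min arrays of experiment 1 (1.34, adjusted p = 0.292) or 2 (1.88, adjusted p = 0.147) or without pairing (adjusted p = 0.095). At 270 min the response of Ifi208 was larger in nascent than in total RNA by 1.45 ± 0.27 (adjusted p = 0.00821). Its 0 min values were under background in both fractions, so the size of this difference is not measured. Ifi208 was not called without pairing (adjusted p = 0.145) or without the 0 min arrays of experiment 2 (1.18).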

How the results depend on the processing

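The 4 members at 270 against 0 min kept their direction and call in nascent RNA under every alternative run (Aim2 1.97 to 2.39, Ifi203 2.79 to 2.95, Ifi205 5.41 to 6.23, Ifi214 4.7 to 6.54), and in total RNA all but Aim2 did (1.11 to 2.01). With the experiment as a replicate block 1 member was called higher at 45 min in total RNA (Ifi205) and 1 lower in nascent RNA (Ifi214, -0.66, adjusted p = 0.047, with both groups under background); no other member call changed under it. Among the other genes the block changed calls of Tbk1, Ikbke, Hmgb1 and Samhd1 at 45 min in nascent RNA and of Casp4 in total RNA, and at 270 against 45 min of Hmgb1, Il1b and Nlrp3 in nascent and Ifi207, Trex1 and Ifnar1 in total RNA. In nascent minus total at 0 min 1 member (Ifi203) was lower with the floor or with dim genes left out, and with the floor 1 (Ifi203, adjusted p = 0.0359) was higher in the 270 min response. At 45 min, leaving out each array in turn changed the calls of Ifi214 in nascent RNA (-1.15, under background) and Ifi205 in total RNA (1.87). In total RNA at 270 min it changed those of Aim2, against 0 min (1.11 and 1.36) and 45 min (0.79 and 1.15). For nascent minus total, both arrays of an experiment and time were left out together. This changed the calls of Aim2 (-0.82) and Ifi203 (-0.88) at 0 min and of Ifi214 in the 45 min response (-1.06). In the 270 min response it changed those of Aim2 (0.91), Ifi203 (1.26) and Ifi214 (1.32). Ifi202b was at -0.57 in nascent minus total at 0 min without the arrays of experiment 1 and at 0.77 without those of experiment 2. In these fits the lone array, or the lone nascent minus total difference, is assumed to vary like the other groups. In the 45 min response over all genes, quantile scaling of all arrays gave 56 higher and 18 lower genes, and the fit without pairing gave 3 and 0, against 95 and 113 in the paired fit as reported. The cause of these differences was not tested. Signal under the background level limits Ifi205 and Ifi214 at 0 min to lower bounds.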

Other observations

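Olfr433, an olfactory receptor gene, starts 10.2 kb from the start of Ifi205 on the opposite strand (chr1:174041933-174042936, plus strand, GRCm38.p6) and was chosen after its values were seen. In nascent RNA it was higher at 45 than at 0 min by 2.22 ± 0.19 (adjusted p = 6.93e-06), at 2.39 and 2.04 in experiments 1 and 2. At 270 min the nascent change was 0.94 (adjusted p = 0.00223), and in total RNA at 45 min it was 0.61 (adjusted p = 0.503). Ifi205 itself changed by 1.98 at 45 min and by 6.09 at 270 min in nascent RNA.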
